A study of Mus musculus with 34 samples.

Results

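Cd59a and Dapk1 were followed across spinal cord of wild-type (WT) mice and of knockout (KO) mice that lack trkB.T1, because both read higher in KO than in WT cord at every time sampled. All probe sets whose gene symbol in the array annotation is Cd59a or Dapk1 were taken. There are 4 of them, 2 for each gene, among 45037 probe sets that are not controls. Of these, 3 passed the filter used here, a log2 value above 4 on at least 4 arrays, as did 24574 probe sets in all. The genes were selected on the KO against WT difference itself, so that difference is described below with no test.

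The 34 arrays form 8 groups. WT and KO mice had either sham surgery, which left the cord intact (4 arrays of each genotype), or a spinal cord injury. Injured WT cord gave 5 arrays at day 1 and 4 each at days 3 and 7, and injured KO cord gave 5 at day 3 and 4 each at days 1 and 7. KO means a null for trkB.T1, the truncated form of the neurotrophin receptor trkB that is made from the gene Ntrk2, and the labels name no cell type or stage to which the deletion is limited. Strain, sex, age, the level and severity of the injury and the spinal segment are not given in the sources used here. Nor do the labels tie arrays to animals, so p-values measure the spread between samples, and the number of arrays limits the precision.

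Cd59a encodes a small glycoprotein held on the outer face of the cell membrane by a glycosylphosphatidylinositol (GPI) anchor. It blocks the last step of the complement cascade, in which terminal components assemble into a pore in the membrane of a target cell. Dapk1 encodes death-associated protein kinase 1, a calcium and calmodulin regulated serine/threonine kinase with ankyrin repeats and a death domain, which is known for roles in apoptosis and autophagy and, in neurons, for binding a subunit of the NMDA receptor. TrkB.T1 lacks the kinase domain of trkB and is the form that astrocytes mainly make.

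The sequences just upstream of both genes are printed because the genes moved together between genotypes. Each line gives the 250 bases before the annotated start, 5′ to 3′ on the plus strand, from RefSeq on build GRCm38.p6, at chr2:104095551-104095800 for Cd59a and chr13:60601961-60602210 for Dapk1. Capitals mark the GC box, searched as GGGCGG or its reverse complement CCGCCC.
Cd59a: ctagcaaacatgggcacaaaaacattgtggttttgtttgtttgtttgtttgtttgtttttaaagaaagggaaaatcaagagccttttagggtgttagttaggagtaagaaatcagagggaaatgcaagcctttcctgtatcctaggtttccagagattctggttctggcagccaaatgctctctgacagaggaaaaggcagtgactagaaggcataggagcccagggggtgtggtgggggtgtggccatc
Dapk1: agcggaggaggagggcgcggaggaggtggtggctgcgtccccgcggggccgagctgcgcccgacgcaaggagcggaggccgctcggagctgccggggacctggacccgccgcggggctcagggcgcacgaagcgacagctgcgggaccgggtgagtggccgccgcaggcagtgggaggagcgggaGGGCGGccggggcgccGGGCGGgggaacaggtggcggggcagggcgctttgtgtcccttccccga
The windows have little in common in base composition. The Dapk1 window is 78.4% G and C and holds 33 CpG dinucleotides and 2 matches to the GC box. The Cd59a window is 44.8% G and C, with 0 CpG dinucleotides and 0 GC boxes. Over the 32851 upstream windows of the same length, the median was 52.4% G and C with 6 CpG dinucleotides, and 32.7% of the windows held the GC box. Dapk1 stands at percentile 98.1 and Cd59a at percentile 23.2 for G and C. The letters TATAAA, which 12.4% of windows hold on either strand, are in neither. These matches describe letters, not binding sites.

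Values are log2 intensities summarised per probe set with GCRMA, per the submitters' processing notes, so a difference of 1 is a doubling. They ran from 2.17 to 15.9, and array medians lay between 4.129 and 4.379. Mean levels of neuron, astrocyte and oligodendrocyte markers in WT sham cord were 12.6, 13.7 and 13.2. The targeted gene, Ntrk2, has 8 probe sets. The pair whose KO mean lay furthest below the WT mean on the injured arrays, called A and B here, was picked for that. On the 17 WT arrays they read 10.01 to 10.86 and 8.65 to 9.92. On 16 of the 17 KO arrays probe set A read 3.12 to 4.94 and probe set B read 2.83. On the library labelled KO sham replicate 2 they read 9.46 and 8.59, so it goes against its label. It is shown apart, and the values of Cd59a and Dapk1 that rest on it are given with and without it. The probe set with the highest mean of the 8, neither A nor B, read higher in KO than in WT cord by group means. Its KO minus WT values were 0.18 in sham cord without that library, 0.61 at day 1, 0.22 at day 3 and 0.63 at day 7, given with no test. The mean of their SEs, from the fit with all arrays, was 0.20, so the sham and day 3 values lie near 1 SE. Without that library its genotypes did not overlap at 2 of the 4 times.

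Cd59a was higher on every KO array than on any WT array, in sham and in injured cord. The probe set with the higher mean (1418710_at, called probe set 1) represents the gene. In WT sham cord its 4 arrays read 9.21, 9.16, 9.14 and 9.18. In KO sham cord the arrays read 10.17, 10.18 and 10.13, and the library labelled KO sham replicate 2 read 9.70. The first 3 of these lie close together and far above the WT arrays, and the last falls between the genotypes.

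At day 1 after injury Cd59a read 9.50, 9.12, 9.30, 9.51 and 9.38 in WT cord, and 10.24, 10.16, 10.29 and 10.19 in KO cord. At day 3 it read 9.21, 9.07, 9.49 and 9.04 in WT and 9.79, 10.14, 10.03, 10.32 and 10.27 in KO cord. At day 7 it read 9.38, 9.20, 8.99 and 9.09 in WT and 10.14, 10.08, 10.06 and 10.04 in KO cord. The genotypes do not overlap at any time, and KO day 3 replicate 1, at 9.79, is the lowest KO array apart from the sham library already named. Over all times the 17 WT arrays lay between 8.99 and 9.51 and the 17 KO arrays between 9.70 and 10.32. The order of the group means was WT day 7, WT sham, WT day 3 and WT day 1, then KO sham, KO day 7, KO day 3 and KO day 1. The WT means ran from 9.17 ± 0.17 (SD, n = 4) at day 7 to 9.36 ± 0.16 (SD, n = 5) at day 1, and the KO means from 10.05 ± 0.23 (SD, n = 4) in sham cord to 10.22 ± 0.06 (SD, n = 4) at day 1. Leaving out the library labelled KO sham replicate 2, the KO sham mean was 10.16 ± 0.03 (SD, n = 3), and the KO order became day 7, day 3, sham and day 1. With all arrays, neighbours in the order within a genotype lie closer than the larger of their SDs, and the step between the genotypes is larger than any SD.

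The other Cd59a probe set (1429830_a_at, probe set 2) showed the same split at a lower level. It read 8.48, 8.32, 8.36 and 8.60 in WT sham and 9.46, 9.56 and 9.55 in KO sham cord, with 8.98 in the library labelled KO sham replicate 2. Over all times it lay between 8.11 and 8.75 on the WT arrays and between 8.98 and 9.74 on the KO arrays. Here too every KO array is above every WT array. The lowest KO arrays are the same as for probe set 1, at 8.98 and, for KO day 3 replicate 1, 9.01. Within a genotype, after subtracting each group's mean, the probe sets followed each other. Pearson's r was 0.77 and Spearman's rho 0.82 over the 17 WT arrays (p = 0.0023 and 0.00099 by permutation within groups, two-sided). Over 16 KO arrays without the library labelled KO sham replicate 2 they were 0.93 and 0.67 (permutation p = 0.0008 and 0.01), and with it, over 17, 0.96 and 0.86 (permutation p = 0.00023 and 0.00048). Without the 2 arrays farthest from the median, Pearson's r was 0.75, 0.65 and 0.85 in the same order.

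**Figure D1:**
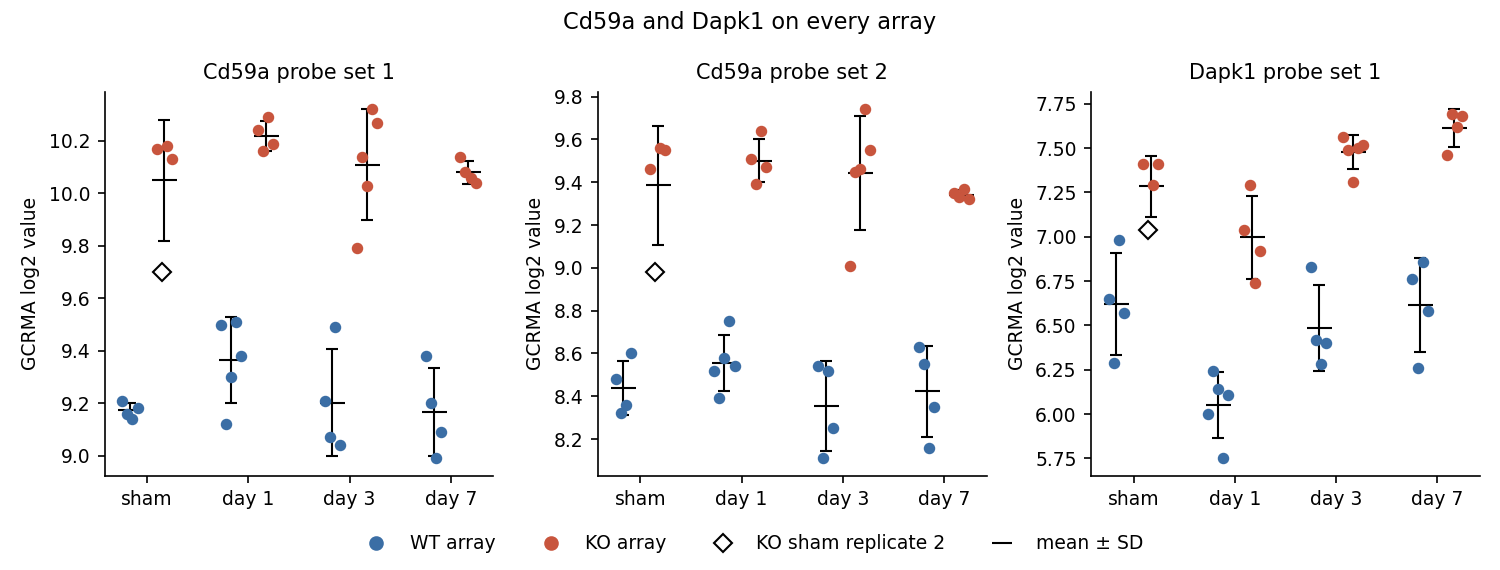
Log2 GCRMA values of the 3 probe sets above the filter (vertical axes) on each of the 34 arrays by time (horizontal axes), with WT arrays in blue, KO arrays in red, the library labelled KO sham replicate 2 as an open diamond and black bars at each group's mean ± SD over all its arrays. Every KO array of both Cd59a probe sets lies above every WT array, and for Dapk1 probe set 1 the genotypes separate within each time, with WT arrays at day 1 the lowest, down to 5.75.

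Dapk1 was also higher in KO cord at each time, but at a lower signal and with a level that moved with time. Its probe set 1 (1426915_at) read 6.65, 6.29, 6.98 and 6.57 in WT sham cord. In KO sham cord it read 7.41, 7.29 and 7.41, and 7.04 in the library labelled KO sham replicate 2. That library is again the lowest of its group, and WT sham replicate 3, at 6.98, comes nearest to it from below.

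At day 1 Dapk1 read 6.0, 6.24, 6.14, 5.75 and 6.11 in WT cord and 7.04, 7.29, 6.74 and 6.92 in KO cord. At day 3 the WT arrays read 6.83, 6.42, 6.28 and 6.40, and the KO arrays 7.56, 7.49, 7.31, 7.50 and 7.52. At day 7 the WT arrays read 6.76, 6.26, 6.86 and 6.58, and the KO arrays 7.46, 7.69, 7.62 and 7.68. No KO array overlaps a WT array of its own time. Across times the ranges do overlap, at 5.75 to 6.98 for WT and 6.74 to 7.69 for KO, so 15 of 17 KO arrays lie above all WT arrays and 13 of 17 WT arrays lie below all KO arrays. The order of the group means was WT day 1 (6.05 ± 0.19, SD, n = 5), WT day 3 (6.48 ± 0.24, n = 4), WT day 7 (6.62 ± 0.27, n = 4), WT sham (6.62 ± 0.29, n = 4), KO day 1 (7.00 ± 0.23, n = 4), KO sham (7.28 ± 0.17, n = 4), KO day 3 (7.48 ± 0.10, n = 5) and KO day 7 (7.61 ± 0.11, n = 4). WT day 3, day 7 and sham do not differ beyond their SDs, each other step exceeds the larger SD of its pair, and each KO mean exceeds each WT mean. The KO sham mean was 7.37 ± 0.07 (SD, n = 3) without the library labelled KO sham replicate 2, in the same place in the order.

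The remaining Dapk1 probe set (1427358_a_at, probe set 2) read 2.17 to 2.27 on WT and 2.17 to 2.52 on KO arrays. These values lie at the bottom of the scale, so it is not well above background on any array and adds no reading of the gene. Probe sequences were not used here, so which part or isoform of either transcript each probe set reads is not given.

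In bulk tissue a difference can lie in the RNA per cell or in the number of cells of a type, and these cannot be told apart. The KO minus WT difference of Cd59a probe set 1 was 0.87 ± 0.11 (log2, SE) in sham cord, 0.86 ± 0.11 at day 1, 0.91 ± 0.11 at day 3 and 0.91 ± 0.11 at day 7, or 1.83-, 1.81-, 1.88- and 1.89-fold. Without the library labelled KO sham replicate 2 the sham value was 0.99 ± 0.11, or 1.98-fold. The 4 values therefore span 0.05 with all arrays and 0.13 without that library, which is close to or under 1 standard error. Cd59a probe set 2 gave 0.95 ± 0.13 in sham cord (1.08 ± 0.13 without that library), 0.95 ± 0.13 at day 1, 1.09 ± 0.13 at day 3 and 0.92 ± 0.13 at day 7.

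Dapk1 differed by 0.66 ± 0.14 in sham cord, 0.95 ± 0.14 at day 1, 0.99 ± 0.14 at day 3 and 1.00 ± 0.14 at day 7, or 1.58-, 1.93-, 1.99- and 2.0-fold. Without the library labelled KO sham replicate 2 its sham value was 0.74 ± 0.15, or 1.68-fold. The Dapk1 values span 0.33 with all arrays and 0.25 without that library, and the smallest is in sham cord either way. By these values the difference was more even over the times for Cd59a than for Dapk1, which was not tested.

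The change of the KO minus WT difference from sham to each day puts this in numbers. For Cd59a it was -0.01 ± 0.16 at day 1, 0.04 ± 0.16 at day 3 and 0.04 ± 0.16 at day 7, and -0.13, -0.08 and -0.07 without the library labelled KO sham replicate 2. For Dapk1 it was 0.28 ± 0.20, 0.33 ± 0.20 and 0.34 ± 0.20, and 0.20, 0.25 and 0.25 without that library. The Cd59a values lie within 1 SE of 0, and those of Dapk1 are between 1 and 2 SEs above 0. All 3 values of a gene share its sham arrays.

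**Figure D2:**
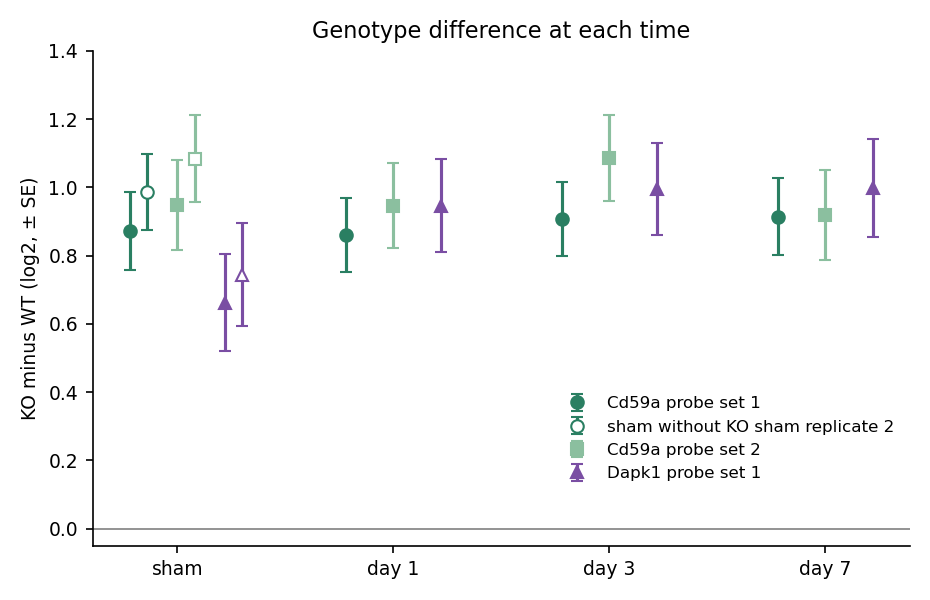
KO minus WT difference (vertical axis, log2 ± SE) of both Cd59a probe sets and of Dapk1 probe set 1 at sham and days 1, 3 and 7 (horizontal axis), with open symbols for sham cord without the library labelled KO sham replicate 2. The filled Cd59a symbols lie between 0.86 and 1.09 at all times, and Dapk1 goes from 0.66 in sham cord to 1.00 at day 7.

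Over the 4 times, with the library labelled KO sham replicate 2 left out, the mean KO minus WT difference was 0.92 for both genes, or 1.89-fold. By this mean Dapk1 ranked 6th and Cd59a 7th among the increases of 11993 genes, each read by 1 probe set. They are the 2 genes of 11993, or 0.0167%, whose KO and WT arrays did not overlap at any of the 4 times in 1 direction, and the count was 2 with all arrays as well. At the level of probe sets, 5 of 24574, or 0.0203%, read higher in KO in this way, 3 of which are the members above the filter. This contrast chose the members, so these shares are a description.

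The other 2 of these 5 probe sets, 1431213_a_at and 1455869_at, have no single gene symbol in the annotation and are named here after their values were seen. Their values over time are given with no test. The means of 1431213_a_at went from 5.38 in sham cord to 6.86 at day 3 in WT and from 6.45 to 9.54 in KO cord. Those of 1455869_at went from 5.32 to 7.23 in WT and from 7.16 to 10.36 in KO cord. In WT cord the sham and day 3 arrays of both overlap, at 5.21 to 5.66 and 5.64 to 7.97 for 1431213_a_at and at 4.99 to 6.17 and 4.68 to 8.59 for 1455869_at. In the other direction, 2 probe sets read lower in KO at every time, and they are Ntrk2 probe sets A and B.

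The library labelled KO sham replicate 2 lay part of the way between the genotypes for both genes. On the linear scale, Cd59a probe set 1 averaged 577 in WT sham and 1140 on the other 3 KO sham arrays, and this library read 832, which is 45.0% of the way from WT to KO. Cd59a probe set 2 stood at 504 between 348 and 736, or 40.1% of the way, and Dapk1 at 131, or 48.2% of the way. Ntrk2 probe sets A and B, picked for their drop from WT to KO on injured arrays, run down rather than up in KO cord. For probe set A this library stood at 704 between 1350 and 21.5 (48.7% of the way). For probe set B it stood at 386 between 847 and 7.11 (54.9%). All 5 probe sets thus put this library between 40.1% and 54.9% on the linear scale. On the log2 scale the members gave 53.5%, 49.6% and 55.8%, and the Ntrk2 probe sets 15.2% and 16.4%. Among all 34 arrays ordered by level, it was 18th from the bottom for both Cd59a probe sets, just above the 17 WT arrays, and 21st for Dapk1. What gave this library such values was not tested.

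**Figure D3:**
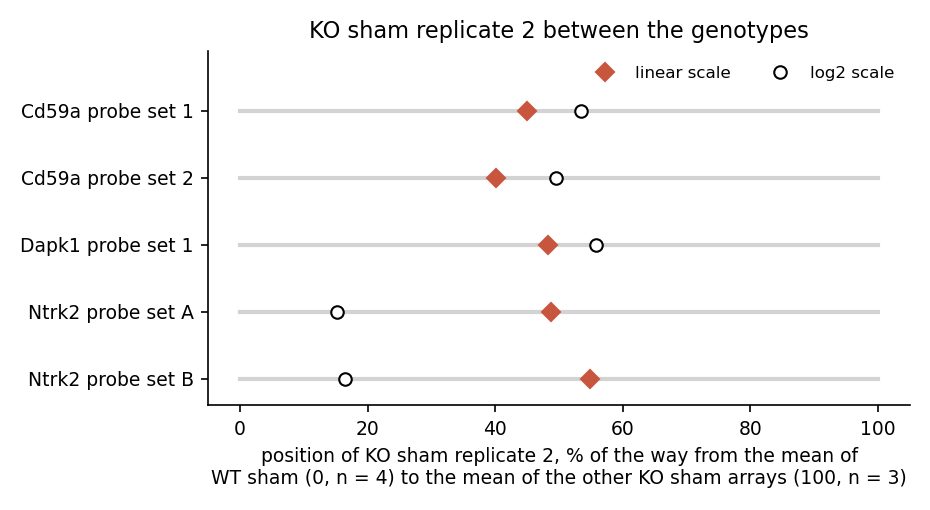
Position of the library labelled KO sham replicate 2 for 5 probe sets (rows), as the percent of the way (horizontal axis) from the mean of the 4 WT sham arrays at 0 to the mean of the other 3 KO sham arrays at 100, on the linear scale (red diamonds) and the log2 scale (open circles). On the linear scale all 5 lie between 40.1% and 54.9%.

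Injury against sham within a genotype is a comparison that the choice of genes did not use. For each genotype the comparisons at days 1, 3 and 7 share their sham arrays. Cd59a passed the threshold at no day in either genotype. In WT cord its injury minus sham difference was 0.19 at day 1 (95% interval -0.03 to 0.41, adjusted p = 0.14 in limma), 0.03 at day 3 (-0.20 to 0.26, adjusted p = 0.842) and -0.01 at day 7 (-0.24 to 0.23, adjusted p = 0.963). In KO cord it was 0.18 at day 1 (-0.05 to 0.41, adjusted p = 0.206), 0.06 at day 3 (-0.16 to 0.29, adjusted p = 0.619) and 0.03 at day 7 (-0.20 to 0.27, adjusted p = 0.829). The highest upper limit of these intervals is 0.41, so a rise of up to 0.41 at day 1 is within what the arrays allow, and the KO minus WT difference is larger than that. Without the library labelled KO sham replicate 2 the KO values were 0.06, -0.05 and -0.08 (limma adjusted p = 0.688, 0.704 and 0.604). Probe set 2 passed nowhere either, with limma adjusted p between 0.463 and 0.931 over the 6 comparisons, and at least 0.272 without the library labelled KO sham replicate 2.

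The background against which this stands is wide. Over all probe sets tested in limma, 52.9%, 61.8% and 53.5% passed in WT cord at days 1, 3 and 7, and 44.6%, 64.8% and 47.2% in KO cord. The KO shares were 38.9%, 61.0% and 41.1% without the library labelled KO sham replicate 2. Cd59a probe set 1 passed in 0 of these 6 comparisons and Dapk1 in 1, with the limma adjusted p of each given beside its value.

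Dapk1 fell in WT cord at day 1 and came back by day 3. The WT arrays at day 1, at 5.75 to 6.24, all lay below the WT sham arrays, at 6.29 to 6.98. The difference was -0.57 ± 0.14, or 0.67 of the sham level (95% interval -0.85 to -0.30, adjusted p = 0.000875 in limma). At days 3 and 7 the WT values were -0.14 (-0.43 to 0.15, adjusted p = 0.407 in limma) and -0.01 (-0.30 to 0.28, adjusted p = 0.971), with arrays that overlap those of sham cord. From day 1 to day 3 Dapk1 rose in WT cord by 0.43 ± 0.14 (limma adjusted p = 0.0182). That call was lost without WT day 1 replicate 4 (0.36, adjusted p = 0.0553) and without WT day 3 replicate 1 (0.32, adjusted p = 0.0975), and with only the compared groups in the limma fit (adjusted p = 0.0583).

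In KO cord Dapk1 stood at -0.29 ± 0.14 at day 1 against sham (95% interval -0.58 to 0.00, adjusted p = 0.101 in limma), and at -0.37 (adjusted p = 0.0535) without the library labelled KO sham replicate 2. Without KO day 1 replicate 2, the highest array of that group at 7.29, the value passed at -0.39 (limma adjusted p = 0.0393). From day 1 to day 3 Dapk1 rose in KO cord by 0.48 ± 0.14 (limma adjusted p = 0.00465), and here the day 3 arrays, from 7.31 up, all lie above those of day 1, which end at 7.29. Against sham, KO cord stood at 0.19 at day 3 (-0.08 to 0.47, adjusted p = 0.216 in limma, and 0.11 with adjusted p = 0.529 without the library labelled KO sham replicate 2) and at 0.33 ± 0.14 at day 7 (0.04 to 0.62, adjusted p = 0.0598 in limma). The day 7 value is near the threshold, and was 0.25 (adjusted p = 0.203) without that library. It passed on leaving out WT sham replicate 2, WT sham replicate 3, WT day 3 replicate 1 or WT day 7 replicate 2, at limma adjusted p between 0.0459 and 0.0486.

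From day 3 to day 7 Dapk1 changed by 0.13 in both genotypes (limma adjusted p = 0.56 in WT and 0.474 in KO), and no change passed for Cd59a between days. The Cd59a values from day 1 to day 3 were -0.16 in WT and -0.11 in KO (limma adjusted p = 0.273 and 0.405), and from day 3 to day 7 -0.04 and -0.03 (adjusted p = 0.859 and 0.863). Over all probe sets 27.1% passed between days 1 and 3 in WT and 46.6% in KO cord, and between days 3 and 7 19.2% and 30.4%. Whether Dapk1 responded differently in the genotypes is not shown by these calls, since the change in its genotype difference, given above, is built from the contrast it was chosen on and was not used as a test.

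**Figure D4:**
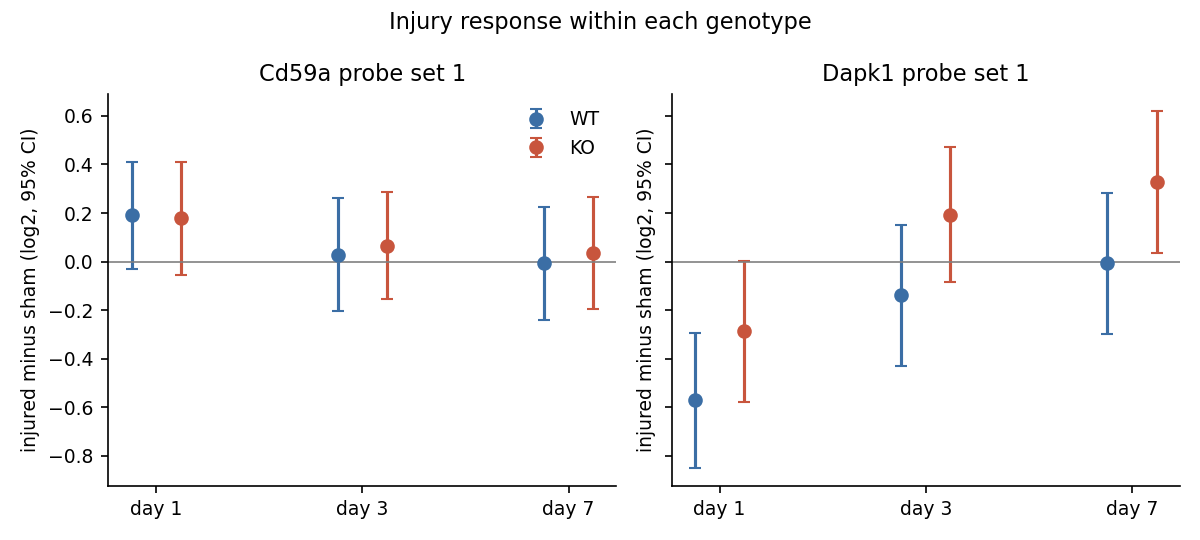
Injured minus sham difference (vertical axes, log2 with 95% confidence interval) of Cd59a and Dapk1 probe set 1 at days 1, 3 and 7 (horizontal axes) in WT (blue) and KO (red) cord. All Cd59a intervals include 0, and of the Dapk1 intervals that of WT day 1 lies lowest, from -0.85 to -0.30.

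Marker levels of the cell types that cord samples can hold are given here for both genotypes. All 5 neuron markers (Snap25, Syt1, Rbfox3, Slc17a6, Gad1) were above the filter. The sum of their log2 values was 63.0 to 63.4 on WT sham, 56.3 to 60.0 at day 1, 56.6 to 58.8 at day 3 and 57.8 to 59.0 at day 7. In KO cord the sums were 62.5 to 63.1, 58.8 to 60.8, 51.9 to 59.3 and 59.2 to 59.7. The sums at each day lie below those of sham cord in both genotypes. The KO minus WT difference of the mean of these markers was -0.08 in sham cord, 0.26 at day 1, -0.27 at day 3 and 0.23 at day 7. The same 4 values were -0.09, 0.01, 0.00 and -0.09 for astrocyte markers (4 of 4 measured) and -0.07, -0.15, -0.17 and -0.09 for oligodendrocyte markers (3 of 4). They were -0.23, -0.42, 0.34 and -0.08 for microglia and macrophage markers (4 of 4), -0.65, 0.08, 0.85 and -0.51 for neutrophil markers (4 of 4) and 0.43, -0.12, -0.16 and -0.50 for endothelial markers (3 of 3). For red blood cells, read by Alas2 alone (1 of 3), they were -0.99, -0.56, -0.84 and -0.79, below 0 at all 4 times. For Schwann cells, read by Pmp2 alone (1 of 3), they were 2.79, -1.78, 0.50 and -0.14. For skeletal muscle (4 of 4), a tissue that surrounds the spine, they were 3.53, -0.30, -0.24 and -1.91, with summed log2 levels of 13.7 to 39.3 on WT sham and 33.7 to 45.4 on KO sham arrays. Without the library labelled KO sham replicate 2 the sham value was 3.41 for muscle, 3.88 for Schwann cells, -0.30 for neutrophils, -0.88 for red blood cells and -0.19, 0.42, -0.09, -0.08 and -0.06 for microglia, endothelial, neuron, astrocyte and oligodendrocyte markers. The part of any of these cells in the levels of Cd59a and Dapk1 was not tested.

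Within a genotype no correlation between Cd59a and Dapk1 passed a permutation test. After subtracting each group's mean, Pearson's r between them was -0.33 and Spearman's rho -0.31 over the 17 WT arrays (permutation p = 0.22 and 0.26, two-sided). Over the 17 KO arrays r was 0.20 and rho 0.09 (permutation p = 0.49 and 0.76), and without the library labelled KO sham replicate 2, over 16, they were -0.22 and -0.33 (permutation p = 0.35 and 0.27). Without the 2 arrays farthest from the median, r was -0.17, 0.00 and -0.24. These 6 relations within genotypes, those of the Cd59a probe sets among them, were computed after the values were seen. With Benjamini-Hochberg adjustment over the 6, the p of r was 0.33, 0.49 and 0.42 here and at most 0.0047 for the Cd59a probe sets.

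Over both genotypes together, likeness between genes was measured by Pearson's r over the 34 arrays after subtracting, at each time, the mean of both genotype means, which keeps the difference between genotypes and removes that between times. Dapk1 was the gene most like Cd59a, and Cd59a the gene most like Dapk1, at r = 0.87, with or without the library labelled KO sham replicate 2. Next to Cd59a came Rpl37, a ribosomal protein gene (0.69), Tnpo3, a nuclear import receptor (0.67), Slc2a12, a glucose transporter (0.66), and Samd9l, an interferon-induced gene (0.65). Next to Dapk1 came Samd9l (0.74), Slc2a12 (0.66), the potassium channel Kcna5 (0.65) and the chemokine Cxcl10 (0.64). Their KO minus WT differences had other courses or sizes. Samd9l stood at 0.78, 1.30, 0.79 and 0.50 (KO minus WT at sham and days 1, 3 and 7), Cxcl10 at 0.08, 1.74, 1.23 and 1.00, and Rpl37 at 0.18, 0.21, 0.14 and 0.23. The first 2 varied more over the times than Cd59a, and Rpl37 was even but small. Without the library labelled KO sham replicate 2, 2310009B15Rik (0.658) took the place of Samd9l beside Cd59a, and Slc2a12 came before Tnpo3. The genes next to Dapk1 stayed the same. Negative correlations were not counted, and over all arrays the most negative was Sytl2, at -0.718 with Cd59a and -0.745 with Dapk1. Both 2310009B15Rik and Sytl2 were named after their values were seen. These likenesses rest on genotype groups and on libraries that all genes share, and carry no test. The genotype difference that the measure keeps is the one Cd59a and Dapk1 were chosen on, so their likeness to each other is no separate support for a link between them.

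Dapk1 lies on chromosome 13, as does the targeted gene Ntrk2, and Cd59a lies on chromosome 2. In the gene table of GRCm38.p6, 31 genes lie between Ntrk2 and Dapk1, 11 of them protein coding, and 7 were above the filter. Of the 40 genes nearest to Ntrk2, 20 on either side, 10 were measured, and 0 had genotypes that did not overlap at all 4 times. The largest mean differences were those of Gkap1 (-0.08), Golm1 (-0.04) and Naa35 (0.04). Dapk1, in position 32, falls outside those 20. With the 20 nearest genes above the filter on either side in their place, a choice made after seeing the data, Dapk1 is the eighth measured gene from Ntrk2 and 1 of 40, at a mean of 0.92, was without overlap at all 4 times. The genes between it and Ntrk2 all had smaller differences. The next in size on that side were Aopep, an aminopeptidase gene, at 0.44 with no overlap at 3 of 4 times, and Fancc, a Fanconi anaemia gene that lies near the filter, at -0.29, both named after their values were seen.

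**Figure D5:**
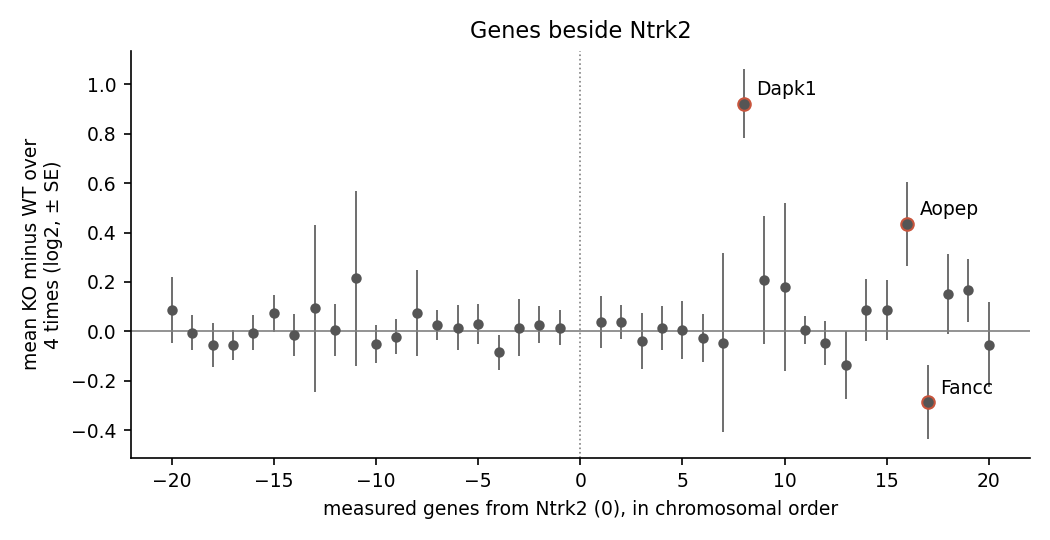
Mean KO minus WT difference over the 4 times (vertical axis, log2, library labelled KO sham replicate 2 left out) of the 20 nearest genes above the filter on either side of Ntrk2, in gene order (horizontal axis, Ntrk2 at 0 and not drawn). Bars give the mean of the SEs at the 4 times, from the fit with all arrays, and not the SE of the mean drawn. Dapk1 stands at 0.92, above Aopep at 0.44, which lies farther from Ntrk2 than Dapk1, and the genes between Ntrk2 and Dapk1 lie near 0.

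Around Cd59a, 12 of its 40 neighbours were measured, with 0 free of overlap at all 4 times. The largest mean differences were those of Qser1 (0.09), Hipk3 (0.08) and Depdc7 (0.06), against 0.92 for Cd59a itself. The median absolute mean difference was 0.04 for these neighbours, 0.03 for those of Ntrk2 and 0.04 over all 11993 genes. Cd59b, the paralog next to Cd59a in the gene table, has no probe set of its own symbol here, and the files do not say how far the Cd59a probe sets also read it, so the Cd59a values are uncertain to that extent.

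The complement list, chosen as the setting of Cd59a, holds 20 regulators and terminal components. On the array were 17, and 6 passed the filter, which leaves out the pore-forming components C6, C8a, C8b, C8g, C9 and Hc as not well above background. Against sham, 3 of the 6 rose and 1 fell in WT cord at each day. In KO cord 2 rose and 3 fell at day 1, 3 rose and 1 fell at day 3, and 3 rose and 0 fell at day 7, and without the library labelled KO sham replicate 2 the day 3 counts were 2 and 2. Over all genes, each read by 1 probe set, 58.4%, 66.1% and 58.0% passed in WT and 49.5%, 69.1% and 53.0% in KO cord at days 1, 3 and 7, or 43.7%, 65.6% and 46.9% in KO without that library. The list's median differences were 0.15, 0.32 and 0.52 in WT and -0.20, 0.10 and 0.41 in KO cord, against -0.06 to -0.05 over all genes. Cr1l, which limits complement on the cell surface as Cd59a does but at an earlier step, rose by 0.53, 0.90 and 0.67 in WT and by 0.76, 1.06 and 0.64 in KO cord. Clu, clusterin, a secreted inhibitor of the terminal complex, rose by 0.32, 0.35 and 0.50 and by 0.30, 0.29 and 0.44. Serping1, the C1 inhibitor, rose by 2.59, 3.08 and 3.54 in WT, and in KO cord stood at 1.09 at day 1 (limma adjusted p = 0.187) and rose by 1.89 and 2.67 at days 3 and 7. Its KO values without the library labelled KO sham replicate 2 were 0.21, 1.01 and 1.79, and that of day 3 did not pass (limma adjusted p = 0.122). Csmd1 fell in WT by 0.96, 0.92 and 0.89, and in KO cord by 0.91 and 1.11 at days 1 and 3, with -0.37 at day 7 (limma adjusted p = 0.208). Cd59a itself did not pass in any of these comparisons, and its difference from these regulators was not tested.

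The enzymes that build the GPI anchor of Cd59a changed in both directions. Of 28 entries 26 were on the array and 23 above the filter. In WT cord 3 rose and 9 fell at day 1, 4 rose and 5 fell at day 3, and 6 rose and 4 fell at day 7. In KO cord 1 rose and 6 fell, 5 rose and 4 fell, and 3 rose and 6 fell. Out of 23, these counts stand beside shares over all genes of 58.4%, 66.1% and 58.0% in WT and 49.5%, 69.1% and 53.0% in KO cord. Without the library labelled KO sham replicate 2 the KO counts were the same but for 4 rises at day 3. The medians lay between -0.07 and 0.03, against -0.06 to -0.05 over all genes. Piga, which acts in the first step of the pathway, fell by 0.32, 0.93 and 0.80 in WT and by 0.42, 0.99 and 0.76 in KO cord at days 1, 3 and 7. Mppe1, which trims the anchor after its attachment, fell at each day in both genotypes, by 0.40 to 0.80. Pigo fell by 0.18 to 0.35 in 5 comparisons, and at day 1 in KO cord stood at -0.13 (limma adjusted p = 0.143), and the KO day 3 call was lost without the library labelled KO sham replicate 2 (-0.14, adjusted p = 0.0913). Pgap2, which remodels the lipid of the anchor, rose by 0.32 and 0.33 in WT and by 0.50 and 0.44 in KO cord at days 3 and 7, with 0.09 and -0.05 at day 1 (limma adjusted p = 0.302 and 0.58).

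The family of Dapk1 with its partners and substrates had 21 entries, 15 on the array and 13 above the filter. In WT cord 5 rose and 4 fell at day 1, and 5 rose and 6 fell at days 3 and 7. In KO cord 1 rose and 5 fell, 5 rose and 7 fell, and 4 rose and 6 fell, or 1 and 4, 5 and 5, and 3 and 5 without the library labelled KO sham replicate 2. Beside these counts out of 13, the shares over all genes were 58.4%, 66.1% and 58.0% in WT and 49.5%, 69.1% and 53.0% in KO cord. The medians lay between -0.14 and 0.03, against -0.06 to -0.05 over all genes. Unc5b, a netrin receptor, fell at each day, from -0.47 at day 1 to -0.97 at day 3 in WT and from -0.73 to -1.14 in KO cord. Pik3c3, the lipid kinase of autophagy, fell by 0.38 to 0.72. Grin2b, the NMDA receptor subunit that Dapk1 binds, fell at each day, with differences of -1.15, -1.5 and -1.51 in WT and -0.94, -1.96 and -0.97 in KO cord, and so was still low at days 3 and 7, when Dapk1 did not differ from sham past the threshold. Mcm3, part of the replicative helicase, rose by 3.5, 3.6 and 2.67 in WT and by 2.95, 4.32 and 2.90 in KO cord, from a WT sham level of 4.53 that is close to the filter.

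The close kinases differed from Dapk1 in level or in response. Dapk2 read 2.17 to 3.61 and Dapk3 at most 4.5 on any array, and neither passed the filter. Stk17b, a kinase of the same family, has 3 probe sets above it. The first of them (1423452_at) rose by 1.14, 1.87 and 1.59 in WT and by 0.99, 2.14 and 1.47 in KO cord at days 1, 3 and 7 (limma adjusted p at most 0.00038), where Dapk1 fell in WT at day 1. The other probe sets of Stk17b also rose in each comparison, except that 1450997_at missed the threshold at day 1 in KO cord (0.75, limma adjusted p = 0.0534). Without the library labelled KO sham replicate 2, 1450997_at stood at 0.435 there (limma adjusted p = 0.272). In that fit 1430165_at missed the threshold there too (0.80, limma adjusted p = 0.0774). Between genotypes the first Stk17b probe set stood at -0.06, -0.21, 0.21 and -0.17 at sham and days 1, 3 and 7, with no common sign, against 0.66 to 1.00 for Dapk1. In the same order 1430165_at stood at 0.03, 0.10, 0.55 and -0.18, and 1450997_at at -0.14, -0.145, 0.81 and -0.12. The day 3 value of 1450997_at thus lies within the range of Dapk1, and its other values do not.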

How the data were processed

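Spinal cord RNA of 34 samples was hybridised to 1 Affymetrix array each, per the labels. The authors deposited log2 values, summarised per probe set with GCRMA, per the submitters' processing notes, whose version and settings are not given in the sources used here. They were used as deposited. Of 45101 probe sets, 64 are controls and 34945 have 1 gene symbol, and 34741 of those were matched by Entrez ID to the RefSeq gene table. Probe sets above log2 4 on at least 4 arrays (24574) were fitted with 1 mean per group in limma 3.58.1 (lmFit and eBayes, R 4.3.3), with Benjamini-Hochberg adjustment over all of them and a threshold of 0.05. For counts over genes, each of 11993 genes was read by the probe set of highest mean level.

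Cd59a, Dapk1 and all lists were chosen with earlier results of these data known. Named beside them are Ntrk2, the paralogs, up to 4 genes per list passing in most injury comparisons, the neighbours of Ntrk2 and Cd59a without genotype overlap or else the 3 with the largest difference, and the 5 genes most like each. Genes named outside this rule are marked as such. No batch information was used. Same-numbered samples correlated at -0.361 to 0.32 over 16 pairs, 6 of them above 0.1, so replicate numbers were not taken to pair samples. Alternatives were other scalings, a floor at log2 4, array weights, other filters, only the groups compared, and leaving out each array. The fit was tested on simulated data.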

Additional observations from a re-analysis of the deposited data

Results flagged for a closer look

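In 40 groups of 4 or 5 arrays (5 probe sets in 8 groups), the lowest or highest array was set against the others of its group, a check that chance alone trips in about 1 of 20 groups, or 2 here. It picked out 4 values. The 5 probe sets were read on the same arrays and some belong to the same gene, so the groups are not independent and the 2 counts cannot be weighed against each other. Besides, Ntrk2 probe set B read 2.83 on all KO arrays of days 1, 3 and 7. Those groups have no spread and could not be picked out, which the count expected by chance does not allow for. In KO sham cord, replicate 2 lay far from the other 3 arrays for Cd59a probe set 1, at 9.70 against 10.13 to 10.18. It did so for Cd59a probe set 2, at 8.98 against 9.46 to 9.56. For Ntrk2 probe set B it read 8.59 where the others were tied at 2.83, so any other reading there would have been picked out. In KO cord at day 3, Dapk1 probe set 1 read 7.31 in replicate 3 against 7.49 to 7.56 in the other 4 arrays. That array still lies above every WT array of Dapk1.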

How the results depend on the processing

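Of 34 results on Cd59a and Dapk1, 20 had a test. Over the 1156 values with 1 array left out, 2 lost a call, 5 gained a call and 14 values of tested results changed sign; over the 260 values under other settings the counts were 1, 2 and 8. The others kept direction and side of the threshold or, untested, moved by less than 1 SD. None of the 22 sign changes passed the threshold in either fit. They were Cd59a at KO day 3 minus sham (-0.035 with array weights, and -0.050 to 0.14 with 1 array left out), KO day 7 minus sham (-0.0046 with the mean of its probe sets, -0.080 to 0.080), KO day 7 minus day 3 (0.044 with array weights, -0.11 to 0.022), WT day 3 minus sham (-0.028 with the mean of its probe sets, -0.066 to 0.081), WT day 7 minus sham (0.032 with array weights, 0.013 quantile normalised, -0.080 to 0.051) and WT day 7 minus day 3 (-0.11 to 0.059), and Dapk1 at WT day 3 minus sham (0.0042 with array weights) and WT day 7 minus sham (0.092 with array weights, -0.12 to 0.11). The untested genotype difference in the Cd59a response also changed sign, with 1 array left out running from -0.13 to 0.03, -0.08 to 0.13 and -0.07 to 0.11 at days 1, 3 and 7. All changes of a call are Dapk1 values in limma. The KO day 1 minus sham value ran from -0.39 to -0.20 on leaving out 1 array, and passed without KO day 1 replicate 2. The KO day 7 minus sham value ran from 0.25 to 0.38, and passed with array weights (0.30, adjusted p = 0.0291) and with only the groups compared (0.33, adjusted p = 0.0167). The WT day 3 minus day 1 value ran from 0.32 to 0.50, and did not pass with only the groups compared (0.43, adjusted p = 0.0583). The cause was not tested. With the replicate number as a block, which the pairing check does not warrant, no call changed, and the WT day 1 value of Dapk1 was -0.59 (adjusted p = 0.00148). None of 36 list counts moved by over 1.5 times. The signal of Dapk1 probe set 2, near the bottom of the scale, limits what it can show.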
